A study of Hordeum vulgare with 32 samples.

Results

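int-c.5 is a barley (Hordeum vulgare) line in which one mutant allele of INTERMEDIUM-C was placed in the genetic background of the 2-rowed cultivar Bowman. The data described here are its 6 shoot apex libraries, 3 labelled Waddington stage 3.5 and 3 labelled stage 5.5, of 32 libraries in the series. They were chosen by their labels for line and stage, and each holds a level for the same 30174 transcripts. The Waddington scale follows the growing spike, from the first floral organ primordia at about stage 3.5 to stages at which the floral organs are taking shape. The other 26 libraries come from Bowman itself (8) and from the lines int-a.1, vrs1 and vrs4.k (6 each), at the same pair of stages. Day length was 16 h at 22 °C with nights of 8 h at 18 °C, no treatment was given to any group, and the tissue was main shoot apex. int-c.5 is a single stock (GSHO 2003), so its values describe one near-isogenic line, and Bowman is the line without the allele. The late stage is 5.5 in the sample labels and 5.0 in the series text and the column headings, and it is called stage 5.5 throughout. Nothing in the labels says whether libraries of a group came from separate plants or pools, so p-values measure only the spread between these libraries.

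INTERMEDIUM-C is a TCP transcription factor, the barley counterpart of maize TEOSINTE BRANCHED1, which holds back the growth of axillary organs. In barley it restrains the lateral spikelets, so mutant spikes show enlarged lateral florets. During the stages sampled, floral identity is laid down by MADS-box transcription factors. In the ABCE model, class B genes specify stamens and lodicules, class C genes stamens and carpels, and class E (SEPALLATA) genes act with all of them. SVP-type MADS-box genes mark the earlier, vegetative to early reproductive apex. An apex is a mixture of tissues, so in what follows a smaller share of one tissue and less RNA per cell of it cannot be told apart.

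The values are in TPM, a unit of transcript abundance scaled by transcript length and library total, which allows levels of different transcripts to be compared per length. Total TPM ran from 980945 to 987728 per library, and the read depth is unknown. The int-c.5 stage 3.5 replicate 1 column holds whole numbers only, while the other 5 int-c.5 columns have several decimals. Differences are given as log2 of (TPM + 1), stage 5.5 minus stage 3.5, which understates the change of low transcripts. The transcript matching INTERMEDIUM-C itself is MLOC_70116.1, on chromosome 4 of the PopSeq genetic map in the authors' annotation. At stage 3.5 it stood at 2, 0.858 and 0.986 TPM and at stage 5.5 at 1.98, 4.02 and 3.07 TPM. As deposited, the first stage 5.5 library lay within the stage 3.5 range and the others above it. The gap between its 1.98 TPM and the 2 TPM of stage 3.5 replicate 1 is within the rounding of that column. Whether the groups overlapped is therefore undecided. In Bowman it ran from 2.2 to 5.2 TPM at stage 3.5 and from 4.2 to 8.4 at stage 5.5. These levels do not check the allele, because a mutant transcript is counted like a normal one.

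How far each int-c.5 library had advanced was read from a scale built without int-c.5. The 26 libraries of the other 4 lines were fitted with limma, and the mean log2 level of the 100 transcripts that rose furthest between the stages there was set against that of the 100 that fell furthest. Of the 13 stage 3.5 libraries of those lines, 12 scored between -3.11 and -1.44, and vrs4.k stage 3.5 replicate 2 scored 0.60, among the stage 5.5 libraries. On this scale the int-c.5 stage 3.5 libraries scored -1.85, -2.30 and -2.86. The stage 5.5 libraries scored -1.04, 0.31 and -0.46. The stages did not overlap, at -2.34 ± 0.51 (SD, n = 3) against -0.40 ± 0.68 (SD, n = 3), a difference of 1.94. An exact permutation test of 3 against 3 libraries cannot go below p = 0.1. Stage 5.5 replicate 1 was the least advanced of its group. Its correlation over all transcripts was 0.954 to 0.966 with its own group and 0.965 to 0.968 with the stage 3.5 libraries, and it is described below with and without. Its summed photosynthesis transcripts came to 4113 TPM, against 2627 to 3055 TPM in the other 5 int-c.5 libraries and at most 3306 TPM in the stage 5.5 libraries of the other lines. Whether leaf or other green tissue had a part in that library was not tested.

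**Figure D1:**
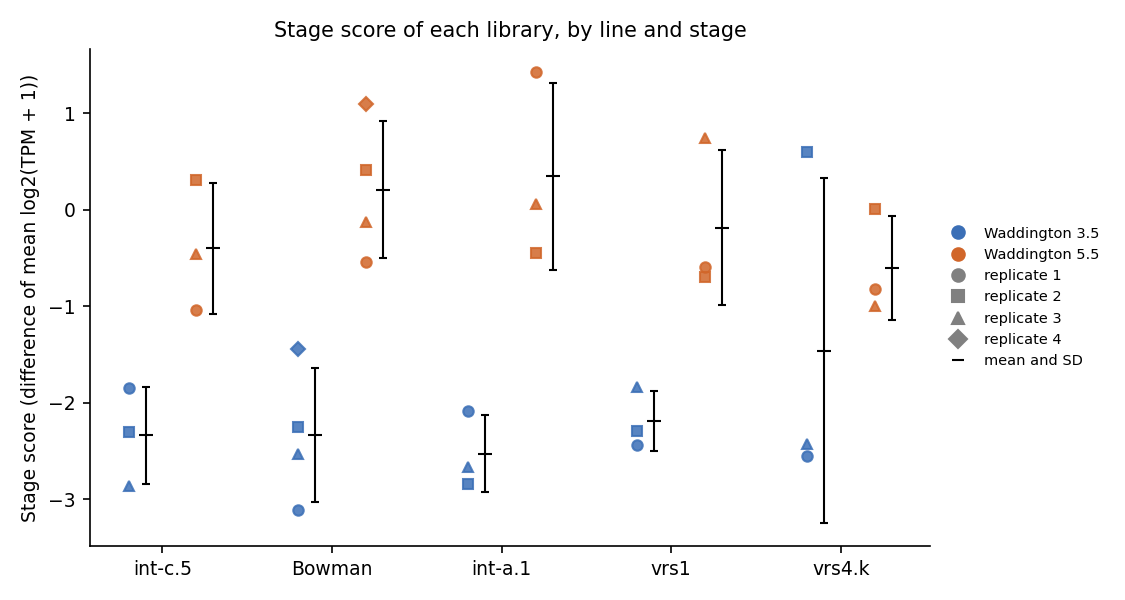
Stage score of each of the 32 libraries (vertical axis, difference of mean log2(TPM + 1) between 100 transcripts that rose and 100 that fell in the lines other than int-c.5), by line and stage, with mean and SD. The int-c.5 stage 5.5 libraries lie at -1.04, 0.31 and -0.46, all above its stage 3.5 libraries, of which the highest is at -1.85. In the other lines the score is a description only, since they chose its transcripts.

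No transcript passed an adjusted p of 0.05 for the stage change within int-c.5 (0% of 30174, limma, Benjamini-Hochberg), and the smallest adjusted p was 0.107. At an unadjusted p under 0.05 there were 3798 higher (12.6%) and 976 lower (3.23%) at stage 5.5. Weighting each library by its own spread in the same limma fit gave 7937 calls, 6229 higher and 1708 lower, so the count rests on how the libraries are weighted. The weights were 0.512 for stage 5.5 replicate 1 and 3.52 for stage 5.5 replicate 3. Without stage 5.5 replicate 1, unweighted, 5 transcripts passed (0.0166%), and without stage 3.5 replicate 1 there was 1. Stage 5.5 replicate 1 was singled out for its less advanced expression. Leaving it out widens the contrast, so the 5 calls are a description only. Bowman gave 0 calls, int-a.1 3, vrs1 0 and vrs4.k 0 in the same fit of all 32 libraries. Since the test called nothing, the groups of transcripts below are described by how many had every stage 5.5 library above, or below, every stage 3.5 library. Over all transcripts this held for 5705 higher (18.9%) and 2145 lower (7.11%), and the median log2 difference was 0.10. Without stage 5.5 replicate 1 these shares were 35.9% and 14.5%, with a median of 0.13. The surplus of higher transcripts depends on scaling, as quantile normalization gave 3420 higher and 4038 lower with a median of -0.01, and upper quartile scaling 4010 and 3558 with a median of 0.02. Transcripts that the authors' annotation marks as low confidence had a median of 0.19 and the high confidence ones 0.04.

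The 5 transcripts called without stage 5.5 replicate 1 were mostly without a named match. MLOC_36897.1, which matches a transposon protein, stood at 66, 48.9 and 70.7 TPM at stage 3.5 and 92.2, 113 and 109 TPM at stage 5.5. The groups did not overlap, and its log2 difference was 0.85 with a limma adjusted p of 0.046 without that replicate and 0.76 with an adjusted p of 0.107 with it. In the other 4 lines it differed by 0.01 (adjusted p = 0.907). MLOC_42768.1, with no named match, was at 8, 7.87 and 9.08 TPM and then at 9.63, 10.9 and 14.8 TPM. It was listed at 0 in all 26 libraries of the other 4 lines, and was the only transcript at 1 TPM or more in every int-c.5 library and at 0 in all others. Without stage 5.5 replicate 1 it rose by 0.56 log2 units (limma adjusted p = 0.0225). The fit shares the spread of a transcript across all groups, and the 26 libraries at 0 add none. This adjusted p therefore does not measure the spread among the int-c.5 libraries. MLOC_26297.3 and MLOC_60858.1 also rose, by 1.08 and 1.39 log2 units without that replicate (limma adjusted p = 0.046 and 0.0111). MLOC_72409.1 fell by 1.04 on that scale (limma adjusted p = 0.0404). For MLOC_60858.1 the left-out library, at 0.967 TPM, lay below all 3 stage 3.5 libraries.

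The floral organ identity genes of classes B and E were higher in every stage 5.5 library than in any stage 3.5 library of int-c.5, with medians of 1.78 and 1.49 log2 units for B and E. Of the 38 transcripts the annotation ties to MADS-box proteins, 18 were higher without overlap (47.4%) and 2 lower (5.26%), beside 18.9% and 7.11% of all transcripts, and their median difference was 0.69 beside 0.10. A few of the 38 are matches to other families, such as F-box proteins. None passed an adjusted p of 0.05 unweighted. With library weights 22 were called higher and 1 lower, beside 6229 and 1708 of all 30174. In the other 4 lines 16 of the 38 rose and 0 fell at an adjusted p of 0.05, beside 2.49% and 1.36% of all transcripts. No MADS-box transcript had an unadjusted p under 0.05 for a difference between the int-c.5 change and that of the other lines.

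Class B has 3 members here, and all 3 were higher without overlap. AK373398, the match to rice OsMADS16 (the APETALA3-type B gene), stood at 9, 4.64 and 2.36 TPM at stage 3.5 and at 14.7, 31.3 and 24.7 TPM at stage 5.5. Each late library was above each early one, and replicate 1 was the highest of the early and the lowest of the late. The log2 difference was 2.03 (SE 0.683, limma adjusted p = 0.214), and 1.84 in the other 4 lines (adjusted p = 0.0117). MLOC_44514.1, matching the PISTILLATA-type OsMADS4, went from 19, 15.4 and 4.21 TPM to 30.6, 55 and 38.1 TPM. Its groups were likewise apart, with a difference of 1.78 (SE 0.696, limma adjusted p = 0.253). MLOC_59262.2, matching the second PISTILLATA-type gene OsMADS2, was lower throughout, at 2.20 to 4 TPM and then 5.02 to 8.39 TPM.

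All 6 class E members were also higher without overlap. AK249904.1, the OsMADS7 match, was at 8, 6.04 and 2.40 TPM at stage 3.5 and 15.3, 29.7 and 21.9 TPM at stage 5.5. The lowest late library was nearly double the highest early one, and the log2 difference was 1.91 (SE 0.765, limma adjusted p = 0.256). AK374424, the OsMADS8 match, followed the same pattern, from 7, 5.43 and 1.90 TPM to 12.1, 26.2 and 19.4 TPM. The transcripts matching OsMADS1 (AK250344.1) and OsMADS5 (MLOC_53585.1 and MLOC_57803.3) belong to the grass-specific branch of class E. In these 3 the gap between stages was narrow, since replicate 1 of stage 5.5 was close to replicate 1 of stage 3.5. MLOC_53585.1, for example, stood at 12 TPM in the latter and 12.02 TPM in the former, while its other stage 5.5 libraries were at 32.9 and 21.2 TPM. That gap is within the rounding of the stage 3.5 replicate 1 column, and with all libraries rounded to whole TPM 5 of the 6 class E members had no overlap. MLOC_64157.2, matching OsMADS34 (PANICLE PHYTOMER2), had the smallest class E difference, 0.91 (SE 0.396, limma adjusted p = 0.281).

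Class C was low at both stages. MLOC_57700.1, the OsMADS58 match, went from 2, 1.44 and 0.588 TPM to 2.51, 6.03 and 2.82 TPM, without overlap. MLOC_5375.2, the OsMADS3 match, went from 4, 1.78 and 0.637 TPM to 3.34, 5.71 and 5.74 TPM, and here stage 5.5 replicate 1 fell within the early range. AK374272, matching OsMADS6 of the AGL6 group, which specifies floret organs and meristem fate in rice, was higher by 1.37 without overlap (limma adjusted p = 0.31). MLOC_80902.1, matching the monocot-specific OsMADS32, ran from 57.7 to 101 TPM early and from 112 to 163 TPM late.

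The FRUITFULL group, which in cereals promotes the floral transition and inflorescence identity, contained the most abundant MADS-box transcript. That transcript, AK360697 (OsMADS14 match), was at 203, 182 and 156 TPM at stage 3.5 and 195, 333 and 263 TPM at stage 5.5. Stage 5.5 replicate 1 again lay among the early libraries, and the difference was 0.52 (SE 0.265, limma adjusted p = 0.334). Its relative MLOC_61901.1 (OsMADS15 match) went from 61, 42.5 and 24.9 TPM to 73.4, 102 and 83.8 TPM without overlap, a difference of 1.07 (SE 0.325, limma adjusted p = 0.195). In the other 4 lines MLOC_61901.1 rose by 0.85 (adjusted p = 0.00983). Outside the flower-patterning classes, MLOC_19375.1 is annotated as OsMADS37. It was at 74, 79.1 and 87.3 TPM and then at 166, 239 and 141 TPM, a difference of 1.14 (SE 0.326, limma adjusted p = 0.195).

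The 4 SVP-type transcripts were the one class with a median below 0, at -0.40. AK356695, an OsMADS22 match, stood at 99, 118 and 142 TPM at stage 3.5 and 96.6, 69 and 82.2 TPM at stage 5.5. Its late libraries lay just below the early ones, and the difference was -0.53 (SE 0.586, limma adjusted p = 0.671). AK250506.1, the OsMADS47 match, was at 114, 133 and 211 TPM and then 138, 77.0 and 102 TPM, so its groups overlapped. Without stage 5.5 replicate 1, all 4 SVP-type transcripts were lower without overlap, and all were also below 0 in the other 4 lines, with none called.

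**Figure D2:**
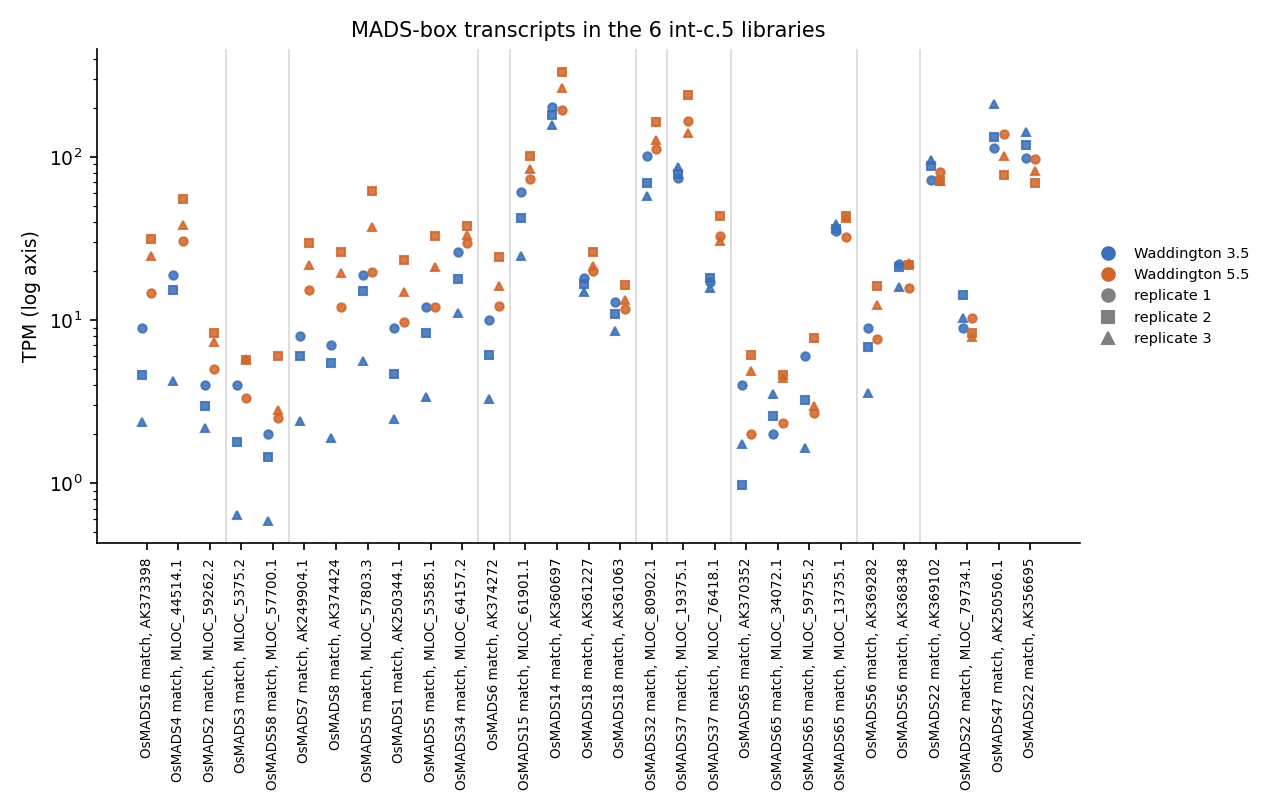
TPM (log axis) of the MADS-box transcripts with an assigned class in the 6 int-c.5 libraries, ordered by class from B, C and E on the left to the SVP type on the right. In the B and E columns every stage 5.5 point lies above every stage 3.5 point, as for AK373398 with 14.7 to 31.3 TPM against 2.36 to 9 TPM, while the SVP-type points on the right overlap or lie slightly lower at stage 5.5.

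Of the 4 transcripts taken here as row-type genes, none had groups without overlap in the values as deposited. For MLOC_70116.1 the overlap was within the rounding of stage 3.5 replicate 1. The transcript of VRS1, an HD-Zip factor that suppresses lateral spikelets (AB259783.1), was at 6, 4.12 and 1.08 TPM at stage 3.5 and 4.14, 11 and 7.78 TPM at stage 5.5. Replicate 1 of stage 5.5 lay inside the early range, and the difference was 0.95 (SE 0.514, limma adjusted p = 0.359). Without that library its groups did not overlap and the difference was 1.28 (limma adjusted p = 0.2). In the other 4 lines, which include vrs1 itself, it rose by 1.03 on average (adjusted p = 0.026). In none of the 4 lines alone was it called, and in vrs4.k its mean was 0.4 and then 0.767 TPM. MLOC_70116.1 itself differed by 0.82 in int-c.5 (SE 0.271, limma adjusted p = 0.208) and rose by 0.72 in the other 4 lines (adjusted p = 0.00983), and the difference between these changes was 0.10 with an unadjusted limma p of 0.754. AK373051, matching the LOB-domain factor of the RAMOSA2 type, had a difference of -0.08 (SE 0.217), and its sign turned without stage 5.5 replicate 1. MLOC_69611.1, matching a JmjC histone demethylase, had 0.12 (SE 0.241). AK373051 fell by 0.43 in the other 4 lines (adjusted p = 0.034).

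Meristem and organ-polarity genes stayed near the level of all transcripts. Of 10 KNOX transcripts, which keep the meristem undifferentiated, 1 was higher (10%) and 0 lower (0%) without overlap. Over all transcripts these shares were 18.9% and 7.11%. The most abundant, MLOC_61870.3, was at 30, 31 and 30.2 TPM early and 33.1, 28.8 and 26.5 TPM late, with the groups overlapping. None of 6 YABBY transcripts, which mark lateral organs, was without overlap, and the most abundant, MLOC_60897.1, was at 44.4 to 54.4 TPM early and 37.5 to 46.3 TPM late. Transcripts of both sets were thus measured at both stages. The TCP list of 44 gathered 15 T-complex chaperonins along with the transcription factors. Among its 21 TCP factors 1 was higher (4.76% beside 18.9%) and 2 lower (9.52% beside 7.11%) without overlap. One of the lower was MLOC_14785.1, at 18, 22.1 and 13.3 TPM and then 6.86, 5.73 and 6.31 TPM, a difference of -1.34 (SE 0.531, limma adjusted p = 0.254). Of the 4 SHI-family transcripts in the list, the family of the row-type gene VRS2, 3 were higher (75% beside 18.9%) and 0 lower without overlap. Their median was 0.58.

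MLOC_44160.1, the match to rice RCN4 and the Arabidopsis centroradialis gene, belongs to the TERMINAL FLOWER1 family that keeps inflorescences indeterminate. It stood at 25, 29.3 and 36.9 TPM at stage 3.5 and 9.03, 9.86 and 10.4 TPM at stage 5.5. The late values were tightly grouped and well under the early ones, with a difference of -1.53 (SE 0.727, limma adjusted p = 0.309) and a fall of 1.41 in the other 4 lines (adjusted p = 0.0445). Of 19 SPL factors, which promote phase change, 6 were higher without overlap (31.6% beside 18.9% of all transcripts) and 2 lower (10.5% beside 7.11%). The 2 lower were both OsSPL8 matches, and MLOC_72194.1 went from 15, 13.1 and 14.3 TPM to 8.58, 7.74 and 7.61 TPM. Among growth-regulating and AP2-type factors 5 of 25 were lower without overlap (20% beside 7.11%) and 2 higher (8% beside 18.9%). MLOC_8138.1, an AP2-like factor, was the most abundant of the lower ones named here, at 116, 115 and 84.5 TPM and then 47.7, 62.9 and 70.8 TPM.

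Of the 12 lowest transcripts named here, 3 match early nodulin 93. AK374982 stood at 23, 14.9 and 19.2 TPM at stage 3.5 and 3.11, 3.01 and 2.14 TPM at stage 5.5. The gap between the groups was wide, with a difference of -2.41 (SE 0.561, limma adjusted p = 0.19) and a fall of 1.30 in the other 4 lines (adjusted p = 0.0247). MLOC_34309.1 went from 17, 14.7 and 15.8 TPM to 4.10, 2.10 and 1.54 TPM, and MLOC_71169.1 from 79, 38.1 and 50.9 TPM to 13.4, 16.3 and 15.3 TPM. AK374982 and MLOC_71169.1 share the PopSeq position 23.8 on chromosome 7, and as members of one family they may share reads. MLOC_71840.1, an ascorbate oxidase of the cell wall, was at 6, 24.3 and 17.4 TPM and then 2.14, 2.43 and 3.08 TPM, a difference of -2.07 (SE 0.561, limma adjusted p = 0.195). AK249533.1, a thionin, an antimicrobial peptide, went from 4, 14.1 and 8.34 TPM to 1.06, 1.17 and 3.56 TPM.

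Of 33 jasmonate-related transcripts, 9 were lower without overlap (27.3% beside 7.11% of all transcripts) and 1 was higher (3.03% beside 18.9%). Their median was -0.07 beside 0.10. MLOC_56924.1, a jasmonate-induced protein, was at 97, 366 and 186 TPM and then 18.2, 88.3 and 61 TPM. Its early libraries spread widely but all exceeded the late ones, and the difference was -1.99 (limma adjusted p = 0.22), with a fall of 1.42 in the other 4 lines (adjusted p = 0.0222). MLOC_47908.1, a jacalin-like lectin, was at 342, 647 and 410 TPM early and 160, 108 and 140 TPM late. The lower members also included MLOC_21933.2, matching allene oxide synthase, an enzyme of jasmonate synthesis, at 97, 183 and 172 TPM and then 94.2, 69.6 and 90.6 TPM. In this one the gap between stages was only a few TPM.

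Of 63 trehalose- and sucrose-related transcripts, 14 were higher without overlap (22.2% beside 18.9% of all transcripts) and 8 lower (12.7% beside 7.11%), with a median of 0.10, that of all transcripts. MLOC_34349.1, a SWEET-type sugar exporter (MtN3 family), stood at 42, 35.5 and 24.1 TPM at stage 3.5 and 98.8, 106 and 153 TPM at stage 5.5. Every late library was at more than double the highest early one, with a difference of 1.80 (SE 0.543, limma adjusted p = 0.195) and a rise of 1.19 in the other 4 lines (adjusted p = 0.0292). AK373077, of the same family and map position, went from 18, 12.1 and 9.42 TPM to 32, 34.8 and 44.8 TPM, and reads may be shared between these close relatives. MLOC_56998.3, a cell wall invertase, which splits sucrose outside the cell, was lower, at 34, 40.4 and 49.3 TPM and then 19.7, 7.04 and 11.5 TPM. Its difference was -1.71 (SE 0.64, limma adjusted p = 0.237). MLOC_57822.1, a UDP-sugar pyrophosphorylase, was at 1, 0.691 and 0.938 TPM in the early libraries and at 4.61, 7.22 and 6.5 TPM in the late ones.

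Of 89 cytokinin-related transcripts, 24 were higher without overlap (27% beside 18.9%) and 6 lower (6.74% beside 7.11%). Their median was 0.24 beside 0.10, and under quantile normalization 15 were higher and 9 lower. The lower members, a share near that of all transcripts, included the cytokinin glucosyltransferase matches MLOC_68938.2 and MLOC_65245.1. The first was at 7, 10.2 and 6.72 TPM and then 4.90, 1.32 and 0.859 TPM. They also included a pair of type-A response regulators, which dampen cytokinin signalling, of which MLOC_78870.1 went from 21, 17.6 and 19.4 TPM to 16.2, 9.45 and 12.3 TPM. Of 42 gibberellin-related transcripts 6 were higher (14.3%) and 2 lower (4.76%). They included MLOC_47250.1, a GASA-family peptide, which was at 19, 24.3 and 19.5 TPM and then 40.4, 37.8 and 40.4 TPM. Its difference was 0.89 (limma adjusted p = 0.145), and it rose by 0.50 in the other 4 lines (adjusted p = 0.0148). Auxin (18 of 106 higher, 11 lower), ethylene (23 and 14 of 127) and brassinosteroid (9 and 0 of 49) had shares of higher members near that of all transcripts.

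Ribosomal protein transcripts were the list with the most lower members. Of 315, 145 were lower without overlap (46% beside 7.11%) and 10 higher (3.17% beside 18.9%), with a median of -0.20 beside 0.10. Their summed level was 157700 to 161300 TPM at stage 3.5 and 133100 to 148000 TPM at stage 5.5, so the groups did not overlap. MLOC_80708.1, encoding 40S protein S6, was at 326, 310 and 308 TPM early and 246, 217 and 217 TPM late (difference -0.47, limma adjusted p = 0.195). With library weights 129 of the 315 were called lower and 5 higher, beside 1708 and 6229 of all 30174 transcripts. In the other 4 lines 38 fell and 1 rose, beside 1.36% and 2.49% of all transcripts. Many members are near-identical copies among which reads could be split.

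Histone transcripts, whose levels follow DNA replication, had a median difference below 0 in int-c.5 and above 0 in the other lines, a contrast that did not pass the test. Of 150, 33 were lower without overlap (22% beside 7.11% of all transcripts) and 5 higher (3.33% beside 18.9%), with a median of -0.17 beside 0.10. With library weights 6 were called higher and 5 lower in int-c.5, beside 6229 and 1708 of all 30174 transcripts. In the unweighted fit of the other 4 lines the median was 0.36. There 17 rose and 0 fell, beside 2.49% and 1.36% of all transcripts. The mean of the list differed between stages by -0.12 in int-c.5, and by 0.27, 0.65, 0.35 and 0.07 in Bowman, int-a.1, vrs1 and vrs4.k. AK374121, a histone H2A, stood at 332, 271 and 272 TPM at stage 3.5 and 247, 226 and 181 TPM at stage 5.5. The early libraries were all higher, with replicate 1 the highest, and the difference was -0.42 (limma adjusted p = 0.484) against 0.37 in the other lines. Tested directly with limma, 0 of 150 passed an adjusted p of 0.05 for a change unlike that of the other 4 lines. At an unadjusted p under 0.05 there were 31, all lower in int-c.5, beside 376 lower and 1109 higher of all 30174 transcripts. Library weights also left 0 of 150 passing the adjusted p for this contrast. Against Bowman alone 0 of 150 were lower at an unadjusted p under 0.05, beside 318 of all 30174. Within-group spread was wide in the other lines, where summed histone levels ran from 20040 to 47950 TPM at stage 3.5 and 32480 to 71040 TPM at stage 5.5. AK354351, a linker histone H1, went the other way, from 4, 3.43 and 2.36 TPM to 5.56, 19.2 and 14.2 TPM. Cell cycle and replication transcripts had 57 of 241 lower (23.7% beside 7.11%) and 29 higher (12% beside 18.9%), with a median of -0.02. Library weights called 31 of the 241 higher and 27 lower, beside 6229 and 1708 of all 30174.

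**Figure D3:**
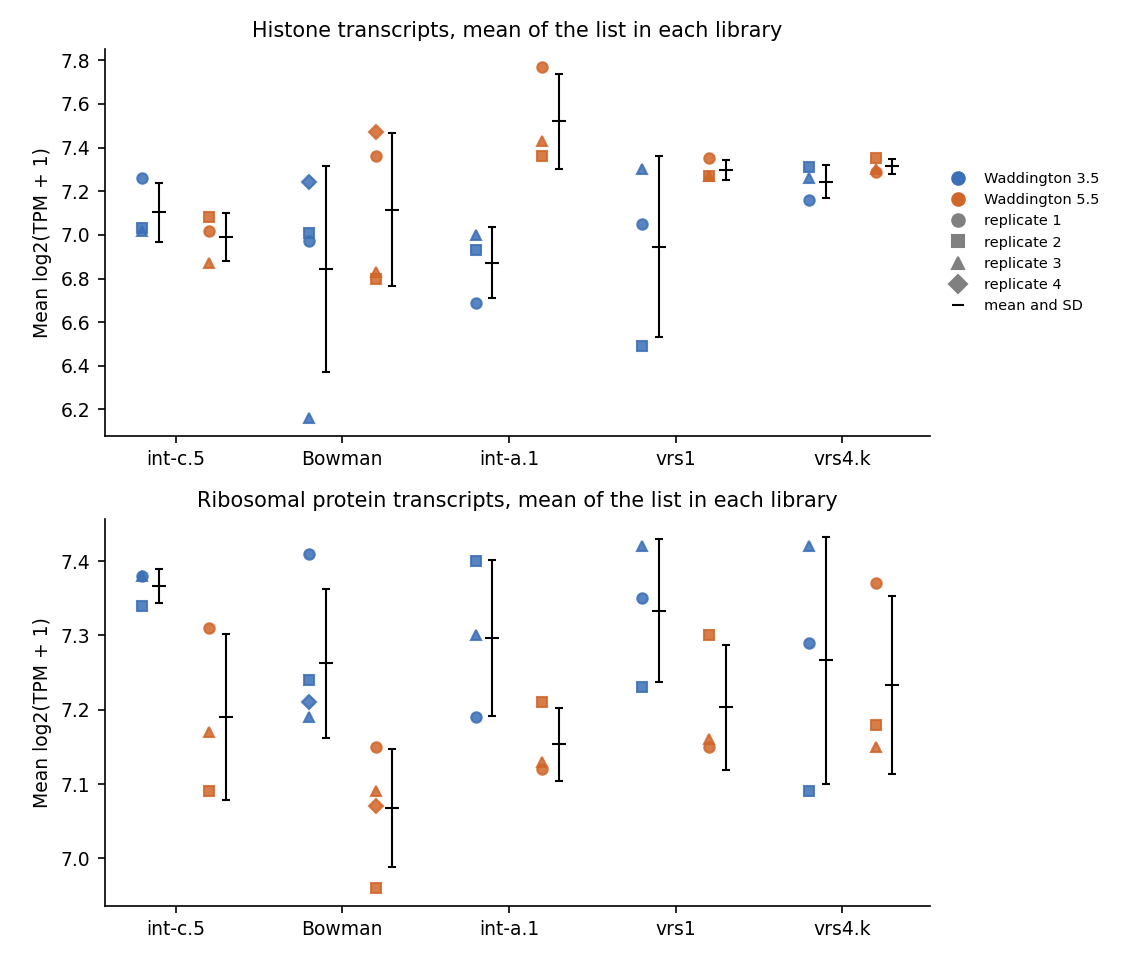
Mean log2(TPM + 1) of 150 histone transcripts (top) and 315 ribosomal protein transcripts (bottom) in each library, by line and stage, with mean and SD. In int-c.5 the histone mean was lower by 0.12 at stage 5.5, with overlapping libraries, and the ribosomal mean was lower without overlap.

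Transposon-related transcripts had 342 of 1371 higher (24.9% beside 18.9%) and 25 lower (1.82% beside 7.11%), with a median of 0.25 beside 0.10. The median stage difference of the same list was 0.26 in Bowman, 0.09 in int-a.1, 0.19 in vrs1 and -0.02 in vrs4.k. High confidence models make up 768 of the 1371 and low confidence ones 586. Quantile normalization left 223 higher and 73 lower. MLOC_36737.1, annotated as both transposon-related and a leucine-rich repeat receptor kinase, was at 1, 3.77 and 1.02 TPM and then 7.54, 13.6 and 6.30 TPM. Its difference was 1.85 (SE 0.373, limma adjusted p = 0.145), and it differed by -0.09 in the other 4 lines. Defence-related transcripts had 67 of 248 higher (27% beside 18.9%) and 7 lower (2.82% beside 7.11%). Quantile normalization left 29 of them higher and 20 lower, where 3420 and 4038 of all 30174 were. Photosynthesis transcripts had 8 of 82 higher and 2 lower, below the share of all transcripts in both directions.

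**Figure D4:**
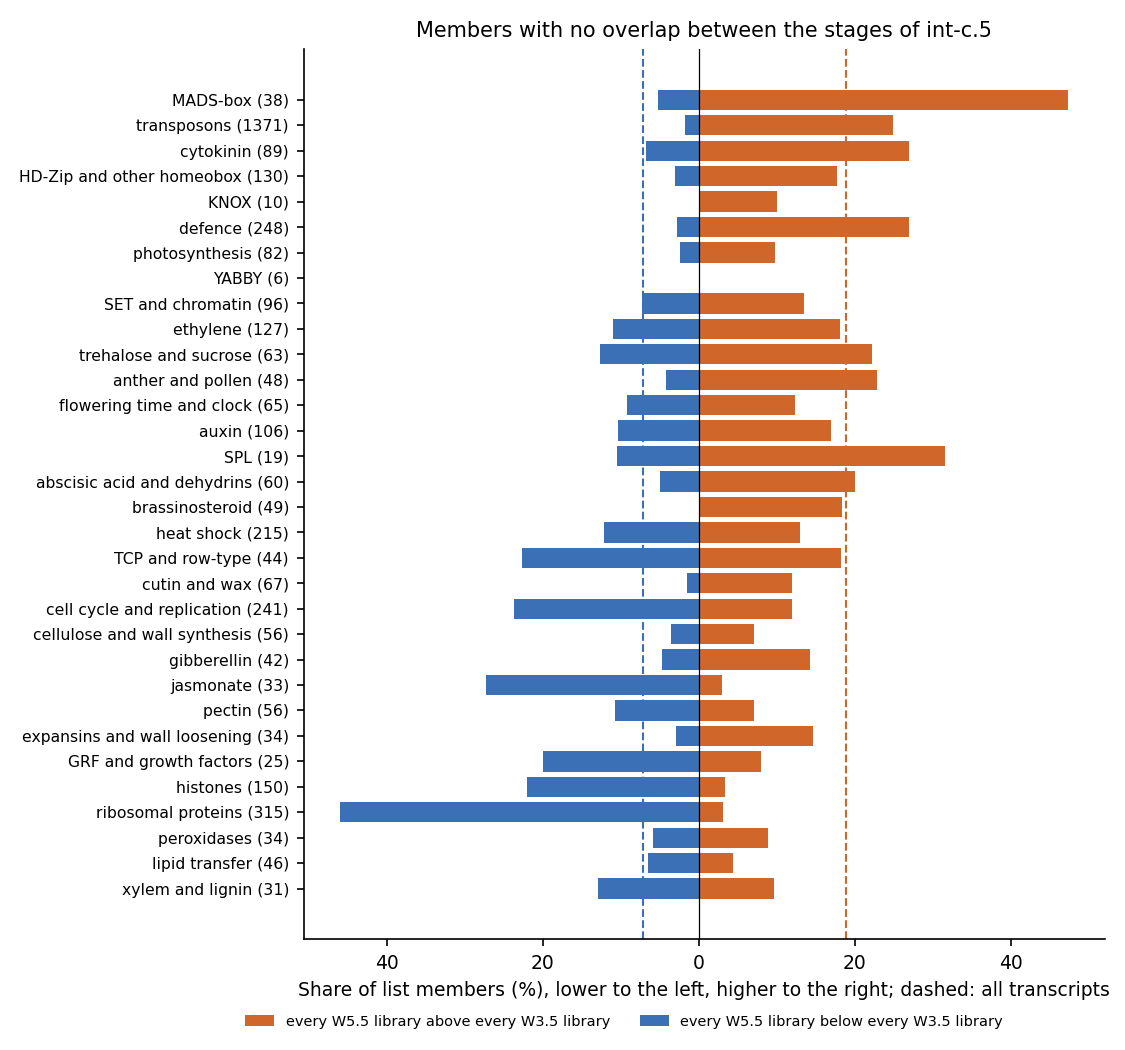
Share of the members of each list (number of members in brackets) whose 3 stage 5.5 libraries all lay above (right) or below (left) the 3 stage 3.5 libraries of int-c.5, ordered by median log2 difference. Dashed lines mark the shares of all transcripts, 18.9% higher and 7.11% lower. MADS-box (47.4% higher) and ribosomal protein transcripts (46% lower) reach furthest on either side.

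The stage change of int-c.5 ran in the direction seen in the other lines for nearly all transcripts those lines identify. In the fit of the other 26 libraries 1162 transcripts passed an adjusted p of 0.05 (limma), 751 higher and 411 lower. In int-c.5, 706 of the 751 (94%) were above 0, beside 64.7% of all transcripts, and 377 of the 411 (91.7%) were below 0, beside 35.2%. Their median log2 differences were 0.40 in int-c.5 and 0.45 in the other lines for the first set, and -0.25 and -0.29 for the second. The int-c.5 libraries had no overlap in the same direction for 343 of the 751 (45.7%) and 189 of the 411 (46%), and in the opposite direction for 4 and 2. The libraries contrasted for int-c.5 and for the other lines are separate, although the int-c.5 fit took its spread from all 32 libraries. The sizes of the sets depend on which libraries of the other lines are used. Without vrs4.k stage 3.5 replicate 2, 3566 transcripts passed, of which 3296 had the same sign in int-c.5. When Bowman stage 3.5 replicate 4 (score -1.44) and int-a.1 stage 3.5 replicate 1 (-2.08) were also left out, as the highest of their groups, 7299 passed and 6676 had the same sign. Both exclusions were chosen with results of these data known, and leaving out the highest early libraries widens the contrast.

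No transcript passed an adjusted p of 0.05 for a stage change in int-c.5 unlike that in Bowman (0%, limma, smallest adjusted p 1), or unlike the mean of the other 4 lines (0%, smallest adjusted p 0.581). At an unadjusted p under 0.05 there were 878 and 1485. With library weights the second count was 296, of which 241 changed more upward in int-c.5, and the first stayed at 0. MLOC_36737.1 was among the transcripts with the smallest p, with 1.94 log2 units between the int-c.5 change and that of the other lines (unadjusted p = 8.91e-05, limma adjusted p = 0.581). MLOC_57822.1 differed by 1.49 (unadjusted p = 0.0135, limma adjusted p = 0.928). The plot of the transcripts furthest from 0 places both beyond the SE bars of the other lines, while the MADS-box transcripts lie close to them. Because the plotted transcripts were chosen for large int-c.5 differences, these positions are a description and not a test.

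**Figure D5:**
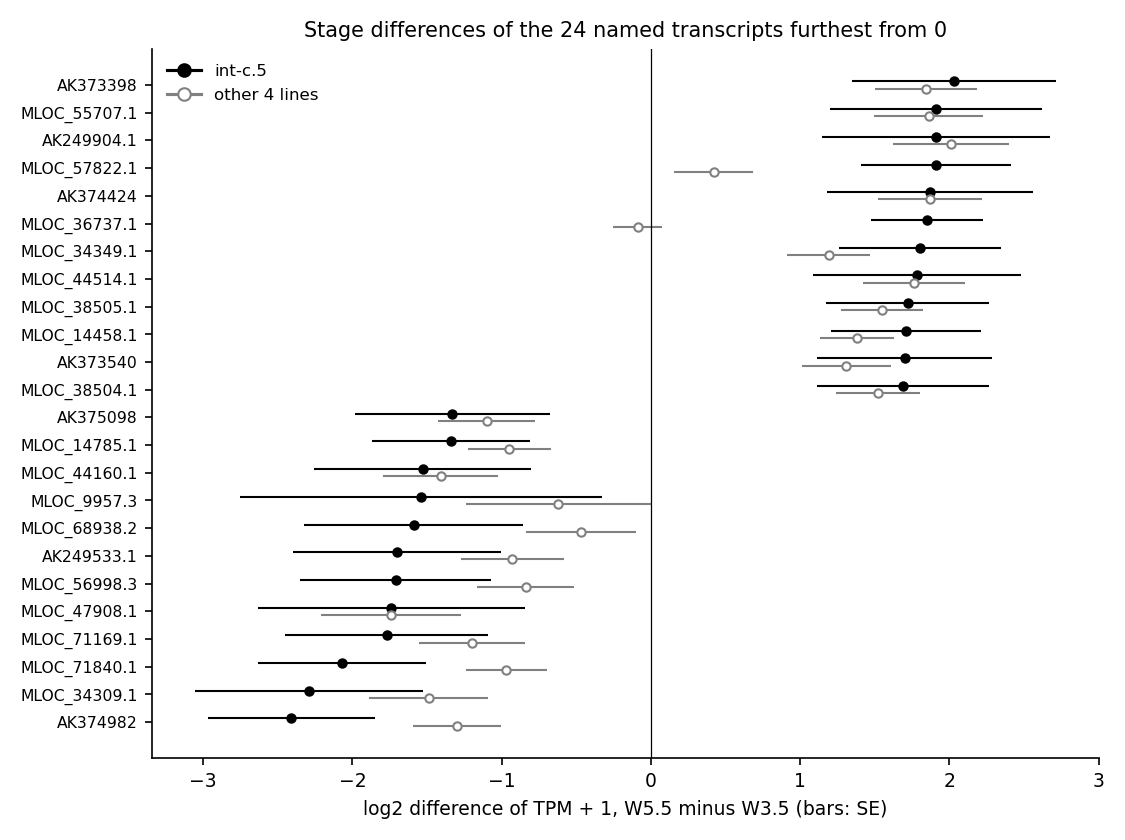
Log2 difference of TPM + 1 between stage 5.5 and stage 3.5 (horizontal axis, bars are SE) in int-c.5 (filled) and in the other 4 lines (open) for the 12 highest and 12 lowest transcripts without overlap in int-c.5 that have an Arabidopsis match and reach 5 TPM. They were chosen on the filled values, which are a description. AK373398 lies at 2.03 and 1.84, whereas MLOC_36737.1 lies at 1.85 in int-c.5 and -0.09 in the other lines.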

How the data were processed

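The authors deposited 1 table of TPM values for 30174 transcripts in 32 libraries, with an annotation of matches to rice and Arabidopsis proteins and PopSeq map positions. Per the submitters' processing notes the tools were BWA, Salmon, GATK and limma. No version of these and no genome build was given in the sources used here. A heading calls the columns raw counts, but the values have decimals and sum to 980945 to 987728 per library, so they were treated as TPM. The int-c.5 stage 3.5 replicate 1 column, as deposited, holds whole numbers. This column, as deposited by the authors, was taken as TPM rounded before deposit and not as a score, which is an assumption. No source states how it was rounded. The other int-c.5 columns have several decimals and those of the other lines 1. Whether the lines were processed separately was not tested, and this bears on comparisons between lines. TPM keeps no read depth, so counting error could not be given.

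Here log2(TPM + 1) was fitted with limma 3.58.1 in R 4.3.3, with all 32 libraries as 10 groups of line and stage and no filter, and p-values were adjusted over all transcripts by the Benjamini-Hochberg method. The fit was tested on simulated data. Alternatives were other pseudocounts, filters, scalings, weights, sample sets and each int-c.5 library left out. The 32 lists were made by keyword in the annotation, and keywords catch some unrelated proteins. Members, lists and tests were chosen with earlier results of these data known. The naming rule took called transcripts, the row-type genes and the most abundant MADS-box, YABBY and KNOX members. As it named few, the 12 highest and 12 lowest without overlap (at 5 TPM, with an Arabidopsis match), those with the smallest p per list or against the other lines, and members without overlap of the lists described were added after their values were seen.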

Additional observations from a re-analysis of the deposited data

How the results depend on the processing

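The count of 0 calls for the stage change within int-c.5 also held with a pseudocount of 0.1, a mean of at least 5 TPM (21222 transcripts), quantile normalization, upper quartile scaling, a mean-variance trend, an adjusted p below 0.01 and the replicate block. It became 1 when only the int-c.5 libraries were fitted, 1 with all libraries rounded to whole TPM and 7937 with library weights. Leaving out 1 int-c.5 library at a time gave 0 to 5. The difference from Bowman stayed at 0 under every alternative run, and that from the other 4 lines at 0 except for 296 with library weights. The same-sign count of 1083 was 6676 without Bowman stage 3.5 replicate 4, int-a.1 stage 3.5 replicate 1 and vrs4.k stage 3.5 replicate 2, where 7299 transcripts rather than 1162 were compared. It ran from 1038 to 1091 with single int-c.5 libraries left out. Of the libraries of the other lines, only vrs4.k stage 3.5 replicate 2 was left out singly, which gave 3296. The stage score difference of 1.94 ran from 1.5 to 2.41. Deviations of same-numbered libraries from their stage means correlated at -0.22, -0.02 and -0.06, and those of differently numbered ones at -0.21 to 0.23. With 3 libraries per stage the deviations sum to 0, so these values cannot decide whether replicate numbers pair the stages. The fit with the replicate block gave 0 calls.

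Of 4202 alternative values over 266 named transcripts, 4026 kept direction and side of the threshold, 169 passed it newly and 7 turned sign. AK373051 (-0.08) turned without stage 3.5 replicate 3 or stage 5.5 replicate 1, with a range of -0.24 to 0.04 over single libraries left out, and was 0.09 with library weights. MLOC_59755.2, a MADS-box transcript, turned without stage 3.5 replicate 3 or stage 5.5 replicate 2, with a range of -0.16 to 0.59. MLOC_61870.3 turned without stage 5.5 replicate 3, with a range of -0.13 to 0.02, and MLOC_69611.1 turned to -0.01 with quantile normalization. Apart from the set sizes above, the cause was not tested. Because the depth is unknown, no counting error could be given for transcripts near 1 TPM.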
